A study of Mus musculus with 6 samples.

Results

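The 10 genes described here, Ccl2, Ccl3, Ccl4, Ccl5, Ccl6, Ccl7, Ccl9, Ccl12, Ccl17 and Ccl22, encode CC chemokine ligands and were selected by symbol from the 23154 genes of the expression table, all 10 being present. Poly(A) RNA was sequenced from RAW264.7 cells, an established mouse macrophage-like line. The HA-NUR77 group was 1 stable line with the pINDUCER20b-HA-NUR77 transgene, which makes NUR77 with an HA tag when doxycycline is added; NUR77 is a transcription factor of the nuclear receptor family and the product of Nr4a1. The GFP group was 1 stable line in which the inducible transgene makes GFP instead. Each group had 3 libraries, 1 per 10-cm dish, and all 6 dishes received 1 µg/mL doxycycline 24 hours after seeding and were kept in it for 18 hours. Cells without doxycycline were not analysed here, and because each transgene is represented by a single stable line, an effect of the transgene and a difference between lines cannot be told apart. The dishes are separate cultures of those lines, so the p-values below measure the spread between dishes only.

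CC chemokines are small secreted proteins named for a pair of adjacent cysteines, and they attract leukocytes by binding receptors of the G protein-coupled family. Ccl2, Ccl7 and Ccl12 are ligands of CCR2 that draw monocytes, Ccl3, Ccl4 and Ccl5 draw monocytes and T cells, Ccl6 and Ccl9 are rodent ligands of CCR1, and Ccl17 and Ccl22 are the ligands of CCR4 on T cells. Macrophages and dendritic cells are major sources of these proteins in inflamed tissue.

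Levels are given as normalized reads, that is, the gene's reads scaled to a library total of 10000000, as mean ± SD over 3 libraries. Depth ran from 11199468 to 15929487 reads per library, so that 3 reads over a group, the limit assigned to a group with none, equalled 0.658 normalized reads for GFP and 0.787 for NUR77. Such limits and the 95% intervals of read ratios cover counting error only. Nr4a1 stood at 170.03, 148 and 161 in GFP replicates 1, 2 and 3 and at 288, 314 and 297 in NUR77 replicates 1, 2 and 3, so all NUR77 libraries were higher (log2 fold change 0.90, SE 0.08, adjusted p = 5.5e-08); reads of the transgene and of the cells' own gene are not separated in this count. Of 10 macrophage markers 9 were tested, of which 5 fell and 2 rose. Over all tested genes 28.3% were called as lower and 38.4% as higher, so such calls by themselves do not set marker genes apart. The summed level of the 10 was 60858 to 62236 in the GFP libraries and 28200 to 30016 in the NUR77 libraries. Abundant genes weigh most in that sum. Lyz2, lysozyme, fell from 26664 ± 848 in GFP cells to 2566 ± 506 in NUR77 cells (adjusted p = 4.3e-07), and Cd68 from 14010 ± 254 to 5136 ± 241. Adgre1, Csf1r and Cd14 also fell. By contrast, Itgam rose from 4224 ± 57.8 to 9598 ± 388 and Fcgr1 from 586 ± 14.0 to 687 ± 40.4. Spi1 and Ptprc were not called, and Mertk was near 0 in both lines (1.09 ± 0.98 and 0.56 ± 0.49). Of 8 dendritic cell markers 2 were tested, of which Zbtb46 rose and Itgax fell, the summed level being 180.2 to 227 in the GFP and 63.6 to 66.2 in the NUR77 libraries, and Flt3 had no read. Of 5 T cell markers 4 (Cd3d, Cd3e, Cd3g and Trac) and of 4 B cell markers 2 (Ms4a1 and Pax5) had no read in any library, Lck fell, and Cd79b was at 0.450 ± 0.390 in GFP and 21.9 ± 8.38 in NUR77. The sum of 5 fibroblast markers was 17.6 to 22.3 in GFP and 92.9, 32.0 and 22.3 in NUR77 replicates 1, 2 and 3. That of 4 epithelial markers was at most 0.893. The part of these marker differences in the results below was not tested, and in bulk RNA fewer cells making a transcript and less of it per cell cannot be told apart.

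Between the lines, 6 of the 10 ligand genes rose in NUR77 (Ccl2, Ccl3, Ccl4, Ccl5, Ccl7 and Ccl22), 1 fell (Ccl9), 1 did not pass the test (Ccl6) and 2 (Ccl12 and Ccl17) were below the filter of 10 normalized reads over the 6 libraries. Calls are from limma across 11201 genes, with Benjamini-Hochberg adjusted p under 0.05. The lines differed widely: 66.7% of all tested genes were called, 38.4% as higher and 28.3% as lower in NUR77, and for 70.6% the values of the 2 lines did not overlap, so a call by itself does not set a ligand apart from other genes. The log2 fold changes of the 6 that rose ran from 1.68 to 9.60. Over all tested genes, those that fell included, the median was 0.06, and 860 genes were called with a log2 fold change of 1 or more. Ccl3 and Ccl4 were above the filter in both lines, and ranked 459 and 416 among the rises. Ccl2, Ccl5, Ccl7 and Ccl22 reached the filter only through the NUR77 libraries, so they had to be higher in NUR77 once they were tested. Neither their p-values nor the size of their rises adds anything to the values themselves. The same limit holds for Ccr7, Cx3cl1, Rgs16, Mmp9, Mmp28, Lcn2, Asb2, Il1b and Gm14275 below.

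**Figure D1:**
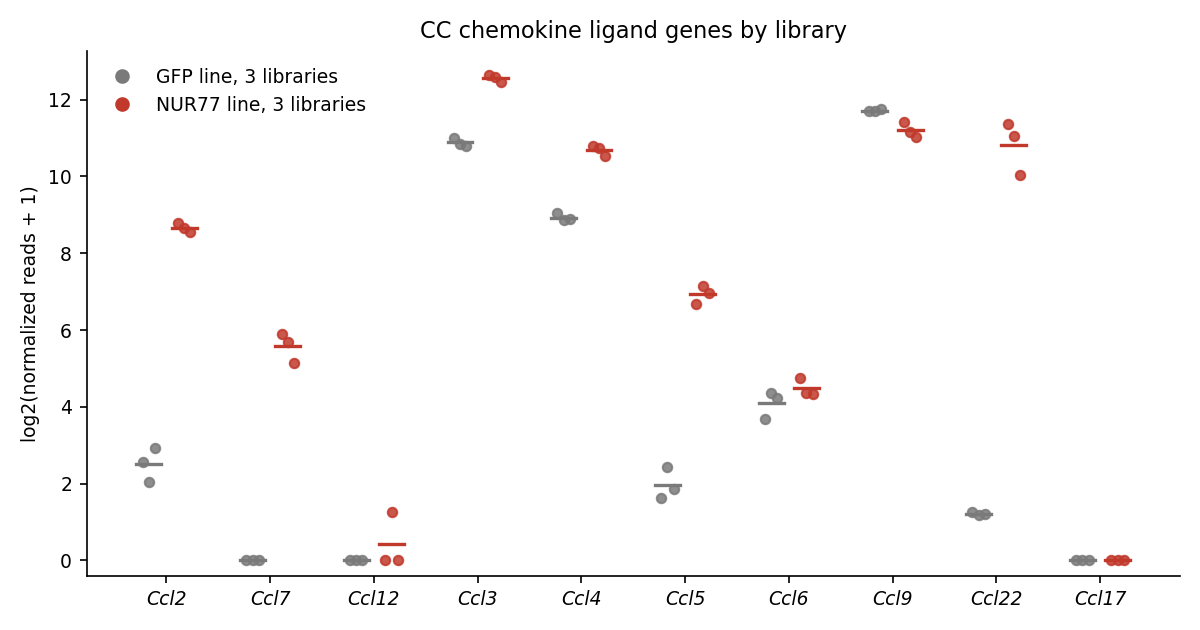
Level of each of the 10 ligand genes in each library, as log2(normalized reads + 1) on the vertical axis. Points are libraries (grey GFP, red NUR77, replicates 1 to 3 from left to right) and bars are means of 3; Ccl3, Ccl4 and Ccl9 are high in both lines, Ccl2, Ccl5, Ccl7 and Ccl22 reach at most 6.54 normalized reads in GFP, and Ccl17 is at 0 in all 6 libraries.

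Ccl2, the main attractant of monocytes through CCR2, stood at 4.88, 3.14 and 6.54 normalized reads in GFP and 439, 405 and 376 in NUR77. The groups were far apart, at 22 reads in all GFP libraries against 1546 in all NUR77 libraries, a ratio of 84.0 (95% interval 55.3 to 134). The log2 fold change was 6.16 (SE 0.19). Ccl2 reached the filter only through NUR77, so its p-value and rank would add nothing to these values and are not given. In the annotation a gene on the opposite strand, Gm17268, spans all 1883 bases of Ccl2 (chromosome 11, 82035571 to 82037453, mm10). The overlap is by the ends of the genes, introns included, and exons were not compared. Because the sources used here do not give the strand setting of the authors' counting, antisense reads, if any, cannot be told apart from those of Ccl2.

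Ccl7, which binds CCR2 together with CCR1 and CCR3, starts 10.1 kb from the start of Ccl2 (chromosome 11, 82045712 to 82047525). It had no read in any GFP library and 58.9, 50.2 and 34.2 normalized reads in the NUR77 libraries, 181 reads in all. The level of 47.8 ± 12.5 was at least 72.6-fold higher than the GFP limit. Its log2 fold change of 5.57 (SE 0.36) depends on the pseudocount of 1, and Ccl7 too reached the filter only through NUR77. Ccl12, the third CCR2 ligand of this group (chromosome 11, 82101845 to 82103400), had 2 reads in NUR77 replicate 2 and none elsewhere, and was not tested. Differences within a library were computed for 5 pairs of ligands; those of Ccl12 with Ccl2 and of Ccl17 with Ccl22 only restate the values of Ccl2 and Ccl22, since the partner was at or near 0 reads, and are not given. The log2 difference between Ccl2 and Ccl7 moved by 0.59 with overlapping libraries (exact permutation test over 6 libraries, two-sided p = 0.2, 0.2 adjusted over the 3 pairs in which both genes were tested); with Ccl7 at 0 reads in GFP this value rests on the pseudocount, and at 0.5 it became -0.26.

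Ccl3 and Ccl4, also called MIP-1α and MIP-1β, were high in both lines, and both rose. Ccl3 measured 2051.5, 1854 and 1786 in GFP replicates 1, 2 and 3 and 6399, 6132 and 5669 in NUR77 replicates 1, 2 and 3. It was 3.20-fold higher in NUR77 (log2 fold change 1.68, SE 0.06, adjusted p = 2.4e-13), and its lowest NUR77 library lay well above its highest GFP library. Ccl4 had 525, 462 and 475 normalized reads in GFP and 1786, 1716 and 1490.1 in NUR77. It was 3.41-fold higher (log2 fold change 1.77, SE 0.07, adjusted p = 1.0e-12). The 2 genes lie next to each other on opposite strands of chromosome 11 (Ccl3 at 83647844 to 83649355, Ccl4 at 83662584 to 83664683), and the ratio of their reads was 3.91, 4.01 and 3.76 in the GFP libraries and 3.58, 3.57 and 3.80 in the NUR77 libraries. That ratio differed by -0.09 on the log2 scale (SE 0.04) with overlapping groups (exact permutation, two-sided p = 0.2, adjusted 0.2).

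Ccl5, or RANTES, a ligand best known from T cells and virus-infected cells, was low in GFP, at 2.09, 4.39 and 2.61, and reached 101, 141 and 123 in NUR77. The total was 14 reads in GFP and 471 in NUR77, a ratio of 40.2 (95% interval 23.7 to 74.1). Its log2 fold change was 4.96 (SE 0.25), and it reached the filter only through NUR77, so its call was fixed once it was tested. Each NUR77 library lay above every GFP library for Ccl5 (chromosome 11, 83525778 to 83530518), with replicate 2 the highest.

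Ccl9 and Ccl6, neighbours on the minus strand of chromosome 11 (83572919 to 83578636 and 83587882 to 83593087) and close relatives that both act on CCR1, were the tested ligands that were not called as higher. Ccl9, also called MIP-1γ and made by resting macrophages and osteoclasts, measured 3318, 3342 and 3450.4 normalized reads in GFP and 2741, 2269 and 2091 in NUR77. It was the 1 ligand that fell, by 0.52 on the log2 scale (SE 0.08, adjusted p = 8.4e-05), being 1.42-fold lower without overlap. Ccl6 had 11.8, 19.5 and 17.6 normalized reads in GFP and 25.9, 19.5 and 19.1 in NUR77. Its groups overlapped, and its log2 fold change of 0.39 (SE 0.25, 95% interval -0.13 to 0.92) did not pass the test (adjusted p = 0.17). The annotation places all 5206 bases of Ccl6 between the ends of E230016K23Rik, a non-coding gene of the opposite strand that itself had 11 reads in GFP and 10 in NUR77. Exons were not compared here either. Per library, there were 280.1, 172 and 196 reads of Ccl9 for each read of Ccl6 in the GFP libraries and 106, 116 and 109.5 in the NUR77 libraries, so the groups did not overlap in this ratio. The difference was 0.91 on the log2 scale (exact permutation p = 0.1, the smallest this design allows, 0.2 adjusted over 3 pairs). Adjusted over all 5 pairs it was 0.167, which is lower only because those include the pairs of Ccl12 and Ccl17 that restate Ccl2 and Ccl22.

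The bases before the start of Ccl9 and Ccl6 are printed because these tandem relatives stood far apart in level and only Ccl9 was called. Sequences are from RefSeq (GRCm38.p6), which held windows for 6 of the 10 ligands, Ccl3, Ccl6, Ccl9, Ccl12, Ccl17 and Ccl22, and are given 5′ to 3′ on the gene's strand as the 250 bases before its start. Capitals mark matches, on either strand, to 7 motifs: AAAGGTCA (the NBRE bound by NUR77 monomers), GGGNNTTTCC and GGGNNTTCCC (short forms of the NF-kB site), GAAANNGAAA (interferon-stimulated response element), TTCNNNGAA (STAT), the AP-1 site TGANTCA, and the core of the TATA box, which is spelled TATAAA. N stands for any base, and matches may overlap.
Ccl9, chr11:83578637-83578886, minus strand: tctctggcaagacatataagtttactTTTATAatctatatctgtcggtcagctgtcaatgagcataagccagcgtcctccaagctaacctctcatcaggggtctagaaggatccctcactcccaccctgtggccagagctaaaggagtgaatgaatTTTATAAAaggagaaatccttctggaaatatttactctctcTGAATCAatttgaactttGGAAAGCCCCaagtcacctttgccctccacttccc
Ccl6, chr11:83593088-83593337, minus strand: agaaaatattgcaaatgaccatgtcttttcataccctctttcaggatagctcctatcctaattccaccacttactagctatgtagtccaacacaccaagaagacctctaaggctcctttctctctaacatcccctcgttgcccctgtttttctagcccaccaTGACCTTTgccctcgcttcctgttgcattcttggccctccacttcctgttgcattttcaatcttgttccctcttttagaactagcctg
The Ccl9 window held a match to the first NF-kB form at -35 to -26, counted from the start of the gene, one to AP-1 at -53 to -47, and TATAAA matches at -224 to -219 and at 2 overlapping places between -94 and -87. The Ccl6 window held 1 match, to the NBRE, at -88 to -81. Over all 32851 RefSeq windows of 300 bases, 1.51% held an NBRE match, 1.63% the first NF-kB form, 7.81% AP-1 and 13.6% TATAAA. These are matches of letters only, and binding was not measured.

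Ccl22, also called MDC and a product of activated macrophages and dendritic cells, showed the largest log2 fold change of all 11201 genes in this fit. The GFP libraries held 2 reads each (1.39, 1.26 and 1.31 normalized reads), and the NUR77 libraries stood at 2630.5, 2126 and 1049, 7316 reads in all. The level went from 1.32 ± 0.0698 to 1935 ± 808, a ratio of reads of 1458 (95% interval 669 to 3974). The log2 fold change was 9.60 (SE 0.29, 95% interval 8.95 to 10.26). Ccl22 reached the filter only through NUR77, so its call was fixed once it was tested, and its rank adds nothing to these values. Ccl17, also called TARC, which binds the same receptor and lies in the same stretch of chromosome 8, had no read in any of the 6 libraries. Per kilobase of exon the Ccl22 level in the NUR77 line was at least 544-fold above the limit of 1.53 that 0 reads of Ccl17 allow there.

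The bases before Ccl22 and Ccl17 are given because these 2 ligands of one receptor had the highest rise and no read, respectively; for Ccl22 they stop at the start that GENCODE gives, which lies before that of RefSeq, and so are 156 bases.
Ccl22, chr8:94745434-94745589, plus strand: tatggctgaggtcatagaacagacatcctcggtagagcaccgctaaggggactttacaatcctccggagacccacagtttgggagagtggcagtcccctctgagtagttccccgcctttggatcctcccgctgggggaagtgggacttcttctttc
Ccl17, chr8:94810203-94810452, plus strand: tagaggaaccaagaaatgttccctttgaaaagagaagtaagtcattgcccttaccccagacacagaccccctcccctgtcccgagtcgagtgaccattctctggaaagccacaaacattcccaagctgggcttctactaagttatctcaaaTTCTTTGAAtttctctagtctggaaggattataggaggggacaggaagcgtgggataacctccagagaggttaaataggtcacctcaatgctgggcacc
The full RefSeq window of Ccl22 held no match to any of the 7 motifs, nor did that of Ccl3, while Ccl17 held a STAT match at -99 to -91 and Ccl12 a TATAAA match at -31 to -26. A STAT match was present in 8.30% of all windows. No match means only that these letters are not in this window.

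Because a read count grows with transcript length, levels of different ligands were compared as normalized reads per kilobase of exon. In the GFP line the order was Ccl3 (2477 ± 180.1), Ccl9 (1107 ± 23.2) and Ccl4 (738 ± 50.1), each apart from the next without overlap, followed far below by Ccl6 (9.09 ± 2.22). Ccl2 (4.26 ± 1.49) and Ccl5 (3.16 ± 1.26) overlapped each other, Ccl22 was at 0.567 ± 0.0300, and Ccl7, Ccl12 and Ccl17 had no read. In the NUR77 line Ccl3 still led (7919.9 ± 483) and Ccl4 came next (2521 ± 234). Ccl22 (832 ± 348) and Ccl9 (777 ± 110.4) overlapped, so their order is not resolved, and below them came Ccl2 (357 ± 28.0), Ccl5 (127 ± 21.1), Ccl7 (59.6 ± 15.6) and Ccl6 (12.0 ± 2.12).

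Summed over the 10 genes, the level per kilobase was 4576, 4237 and 4203 in the GFP libraries and 13671, 12844 and 11307 in the NUR77 libraries, with means of 4339 ± 206 and 12608 ± 1199, 2.91-fold apart. Ccl3 made up 57.0 ± 1.53% of that sum in GFP and 63.0 ± 2.24% in NUR77, and Ccl4 between 16.5 and 17.4% in GFP and between 19.8 and 20.2% in NUR77. The share of Ccl9 was 25.6 ± 1.604% in GFP and 6.15 ± 0.398% in NUR77. The share of Ccl22 went from 0.0131 ± 0.000317% to 6.46 ± 2.22%, and that of Ccl2 from 0.0985 ± 0.0360% to 2.84 ± 0.0733%. In both lines Ccl3 and Ccl4 thus made up most of the ligand transcripts, and the genes with the largest fold changes remained minor parts of the sum.

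**Figure D2:**
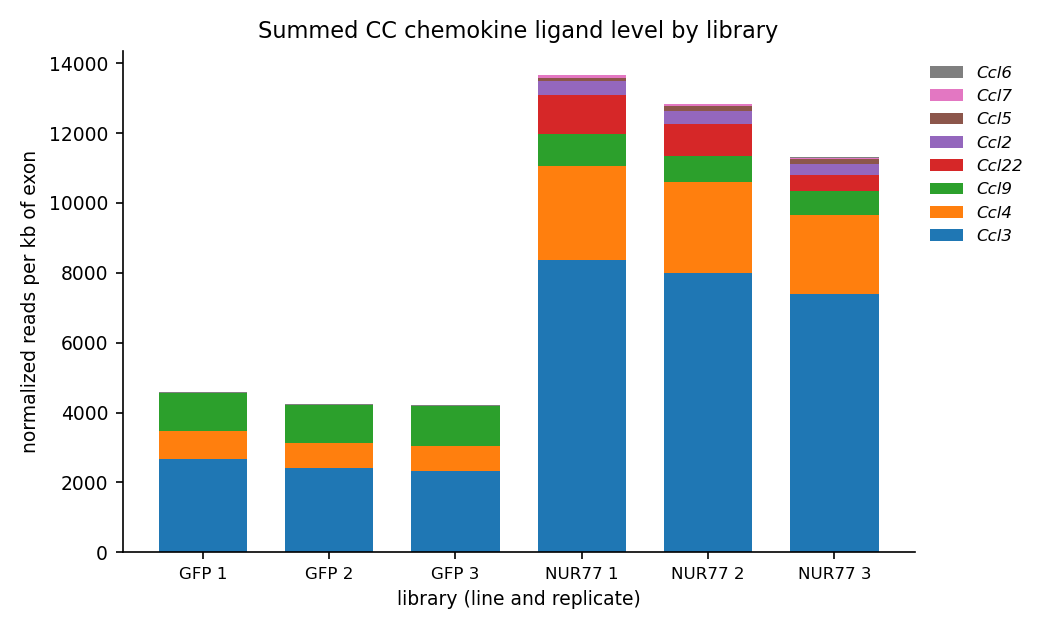
Stacked level of the ligand genes in each library, in normalized reads per kilobase of exon on the vertical axis and libraries on the horizontal axis; Ccl12 and Ccl17 are too low to be drawn. The bars reach 4203 to 4576 in GFP and 11307 to 13671 in NUR77, Ccl3 is the largest part of every bar, and Ccl22 can be seen only in the NUR77 bars.

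The NUR77 libraries did not agree equally well on all ligands. Of the 8 tested ligands Ccl22 varied most: its highest library was 2.51-fold above its lowest, a coefficient of variation of 41.8%. Among the 2595 tested genes with a NUR77 mean of 1000 or more, a level chosen after the values were seen, the median coefficient of variation was 4.46%, and no other gene reached that of Ccl22. From the mean of the NUR77 line, Ccl22 deviated by 0.54, 0.24 and -0.78 on the log2 scale in replicates 1, 2 and 3, and Ccl7 by 0.33, 0.10 and -0.44. Ccl9, though lower in NUR77 than in GFP, had the same order (0.22, -0.05 and -0.17). Replicate 1 was the highest and replicate 3 the lowest NUR77 library for 7 of the 8 tested ligands, the exception being Ccl5 (-0.26, 0.23 and 0.03); 17.9% of all tested genes had this order, and 19.8% after TMM scaling, under which it also held for 7 of the 8 ligands. Replicate 1 also stood apart in some genes of other cell types. In the fibroblast sum given above this came from Col3a1 (62.5, 13.2 and 6.36 in NUR77 replicates 1, 2 and 3) and Col1a2 (14.3, 1.39 and 3.18). Dcn was almost level (8.93, 8.36 and 7.96), and Col1a1 was highest in replicate 2 (7.14, 9.06 and 4.77). The B cell marker Cd79b was lowest in replicate 1 (12.5, 28.6 and 24.7). Of 7 skeletal muscle markers 3 were tested and 1 of them, Tnni2, fell, beside 28.3% of all tested genes. The summed level of the 7 was 374 to 421 in GFP and 97.5 to 255 in NUR77. Without Tnni2 it was 159 in NUR77 replicate 1 and 31.4 to 39.0 in the other 5 libraries. The sum of 6 neutrophil markers was 4.18 to 6.91 in GFP and 40.2, 24.4 and 13.5 in NUR77 replicates 1, 2 and 3, mostly from S100a8 at 39.3, 24.4 and 13.5, while Ly6g and Camp had no read. The part of these in the spread of the ligands was not tested. Without replicate 1 the log2 fold change of Ccl22 was 9.33 and that of Ccl9 -0.63, and without replicate 3 they were 10.00 and -0.43. Ccl9 was still called by limma each time, while the call of Ccl22 was fixed once it was tested.

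**Figure D3:**
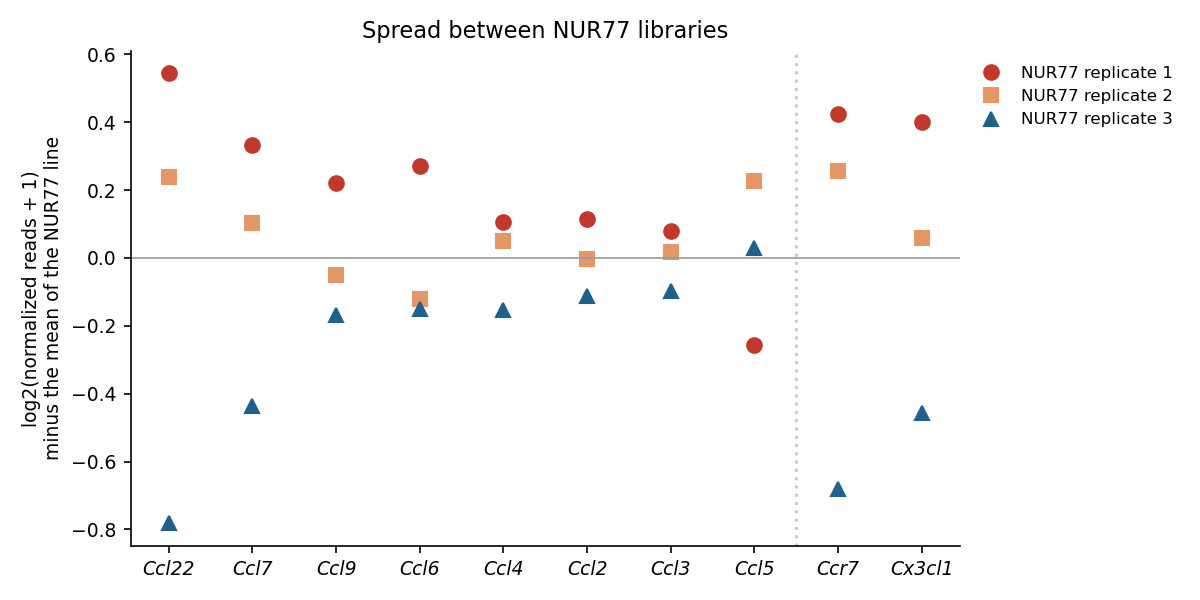
Deviation of each NUR77 library from the mean of the NUR77 line, in log2(normalized reads + 1) on the vertical axis, for the 8 tested ligands and, right of the dotted line, Ccr7 and Cx3cl1. Circles, squares and triangles are replicates 1, 2 and 3; replicate 3 is lowest for the 10 genes shown except Ccl5, and Ccl22 has the widest spread, from -0.78 to 0.54.

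The 10 genes lie in 3 groups of the genome, and members of a group did not share one response. The Ccl2 to Ccl1 group spans 270.1 kb of chromosome 11 (82035571 to 82305690), and in it only Ccl2 and Ccl7 were detected beyond 2 reads, since Ccl11, Ccl8 and Ccl1 had no read. Of the 3 nearest protein-coding genes on each side of that group, Asic2, 5530401A14Rik and Tmem132e had no read, Cct6b was at 2.78 ± 2.17 in GFP and 2.85 ± 0.568 in NUR77, and Zfp830 was at 152 ± 13.3 and 166 ± 10.7 (log2 fold change 0.13, adjusted p = 0.26); Spaca3 was not analysed here. The Ccl5 to Ccl4 group spans 139 kb of the same chromosome (83525778 to 83664683) and held rises of 4.96, 1.77 and 1.68, the fall of Ccl9 and the Ccl6 value of 0.39. At its edges, Wfdc17, which encodes a whey acidic protein domain protein and lies 39.3 kb beyond Ccl4, fell from 319 ± 24.2 to 50.5 ± 14.2, by 2.68 on the log2 scale (adjusted p = 7.5e-08). On the Ccl5 side, Mmp28, a matrix metalloproteinase, was at 5.90 ± 0.892 in GFP and 20.9 ± 1.09 in NUR77 (1.67), reaching the filter only through NUR77, Taf15, an RNA-binding protein, rose by 0.27 (adjusted p = 8.1e-05), and Heatr9 had no read in GFP and 6 in NUR77. Wfdc18 had 16 reads in GFP and 1 in NUR77, Wfdc21 had none, and Rpl9-ps1, between Ccl6 and Ccl3, had 1 read in all.

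On chromosome 8, Ccl22 (94745590 to 94751699) and Ccl17 (94810453 to 94812036) enclose Cx3cl1, which encodes fractalkine, the CX3C chemokine. Cx3cl1 had no read in the GFP libraries and 26.8, 20.9 and 14.3 normalized reads in the NUR77 libraries. The NUR77 level was at least 31.4-fold above the GFP limit (log2 fold change 4.40, SE 0.42), and the gene reached the filter only through NUR77. In this row of 3 chemokine genes the first and the second were thus higher in each NUR77 library than in any GFP library, and the third had no read. Genes around the row moved little: Ciapin1, 7.77 kb beyond Ccl17, rose by 0.23 (adjusted p = 0.008, but 0.052 with TMM scaling), Polr2c by 0.27 (adjusted p = 0.0012) and Rspry1 by 0.33 (adjusted p = 7.4e-05), and Coq9 (0.10, adjusted p = 0.25) and Arl2bp (0.16, adjusted p = 0.16) were not called. Pllp, the nearest gene on the Ccl22 side, had 1 read in all.

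**Figure D4:**
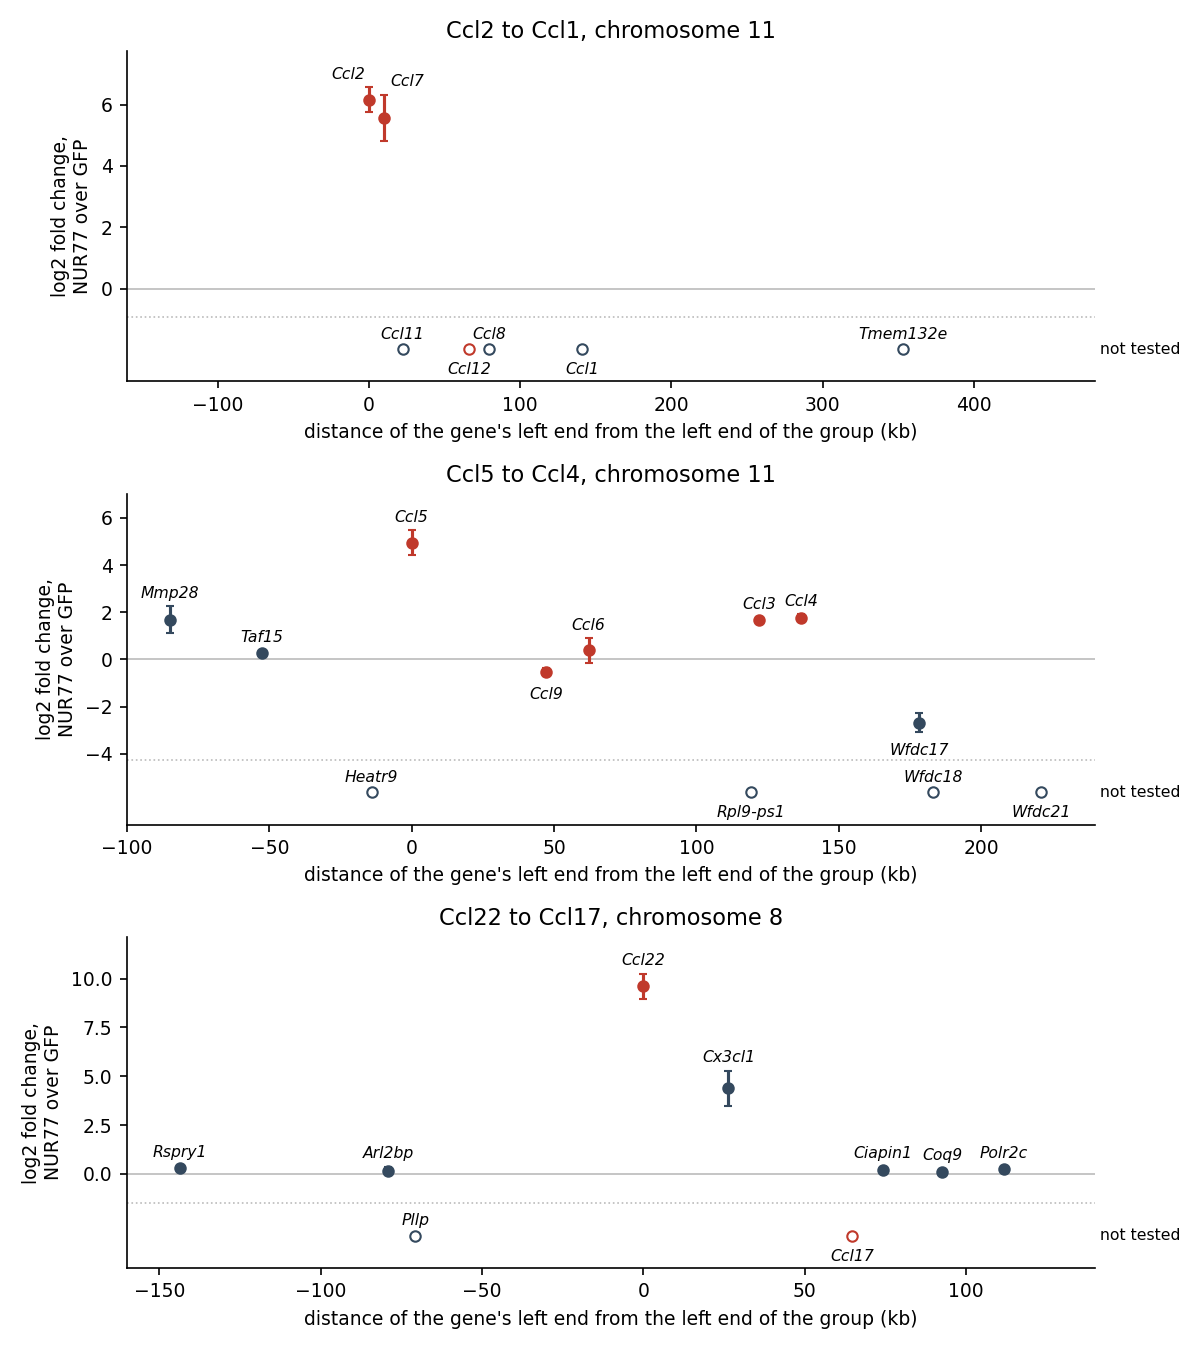
Log2 fold change of NUR77 over GFP (vertical axis) against the distance in kilobases from the left end of each of the 3 gene groups (horizontal axis). Filled points are tested protein-coding genes with 95% intervals, red for the 10 ligands and blue for others, and open points below the dotted line mark genes that were not tested; Ccl22 at 9.60 and Cx3cl1 at 4.40 stand beside Ccl17 with no read, and Ccl9 and Wfdc17 are the points below 0.

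Other CC ligands were hardly seen. Of 11 further genes 10 were in the table, and 8 of them (Ccl1, Ccl8, Ccl11, Ccl19, Ccl20, Ccl21a, Ccl27a and Ccl28) had no read in any library. Ccl24, an eosinophil attractant, had 3 reads in all. Ccl25, the ligand of CCR9, was at 20.6 ± 3.76 in GFP and 23.2 ± 1.57 in NUR77 and was not called (log2 fold change 0.17, adjusted p = 0.49); it shares 204 bases with Elavl1 on the other strand.

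Of 14 genes for CC receptors and CC-binding decoy receptors analysed here 13 were in the table and 4 were tested, of which 1 was called as higher and 3 as lower, beside 38.4% and 28.3% of all tested genes. Ccr7, the receptor of Ccl19 and Ccl21 that guides dendritic cells to lymph nodes, had no read in GFP and 285, 254 and 132 normalized reads in NUR77. It was at least 340-fold higher (log2 fold change 7.74, SE 0.30) and reached the filter only through NUR77, so its call was fixed once it was tested. Its libraries had the order of Ccl22, with deviations of 0.42, 0.26 and -0.68. The 3 receptors of this list that fell were these. Ccr1, which binds Ccl3, Ccl5, Ccl6, Ccl7 and Ccl9, fell from 243 ± 34.4 to 46.3 ± 18.2 normalized reads, by 2.44 on the log2 scale (adjusted p = 9.1e-05). Ccr2, the receptor of Ccl2 and Ccl7, fell from 65.9 ± 4.59 to 34.4 ± 1.18 (-0.92, adjusted p = 3.6e-05). Ccrl2, an atypical receptor that does not signal through G proteins, fell from 132 ± 6.58 to 85.1 ± 4.39 (-0.63, adjusted p = 5.8e-05). Ccr4, the receptor of Ccl22 and Ccl17, was under the filter with 8 reads in GFP and 26 in NUR77 (1.75 ± 0.974 and 6.82 ± 0.408 normalized reads). Ackr2, a scavenger of inflammatory CC chemokines, had no read in GFP and 14 in NUR77, at least 5.64-fold higher than the limit, and Ackr1 had no read. With no filter on low levels 8 of these receptor genes were called of 12 tested, 5 as higher and 3 as lower, where 45.3% of all genes were called, 25.6% as higher and 19.7% as lower.

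**Figure D5:**
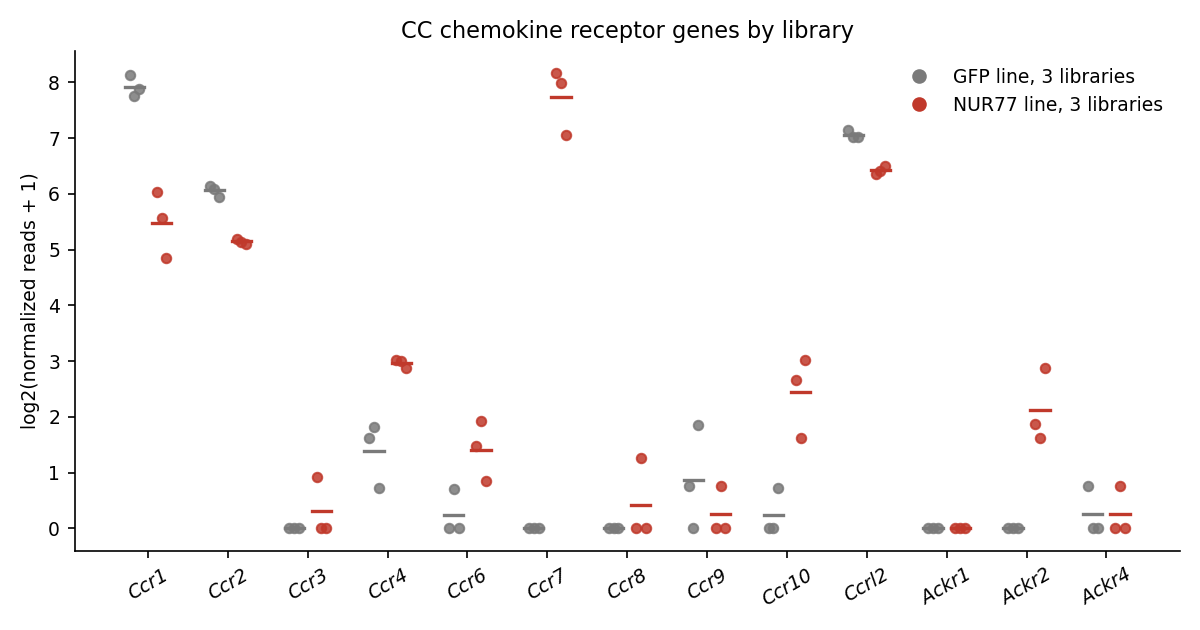
Level of each of 13 receptor genes in each library, as log2(normalized reads + 1) on the vertical axis. Points are libraries (grey GFP, red NUR77) and bars are means of 3; Ccr7 is at 0 in GFP and between 132 and 285 normalized reads in NUR77, and Ccr1, Ccr2 and Ccrl2 lie lower in NUR77.

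Among genes that act between a CC receptor and the cell's response, 9 of 16 rose, 3 fell and 4 were not called (median log2 fold change 0.23); with TMM scaling 8 rose and 6 fell. The 12 called of 16 stood beside 66.7% of all tested genes (38.4% higher, 28.3% lower), and with TMM scaling 14 of 16 beside 66.4% (32.3% higher, 34.1% lower). The largest rises by the rule used were Gng2, a G protein subunit (0.77), Rac2, a small GTPase of leukocyte migration (0.76), and Grk2, a kinase that desensitises receptors (0.74). Rgs2 (-1.31), Rgs1 (-0.71), both of which shorten G protein signals, and Elmo1 (-0.22), a Rac activator, fell. The other regulator of that family in the list, Rgs16, had no read in GFP and 20.8 ± 8.05 normalized reads in NUR77; it is among the 9, reached the filter only through NUR77, and is named after its values were seen.

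Of 21 transcription factors known to act on chemokine genes, 15 rose, 2 fell and 4 were not called, with a median log2 fold change of 0.70, beside 38.4% higher, 28.3% lower and a median of 0.06 over all tested genes. Irf7, a driver of interferon genes, rose from 32.3 ± 4.78 to 1746 ± 284 (5.71, adjusted p = 5.5e-13). Fosl1, an AP-1 subunit, rose by 2.35 and Stat3 by 1.80. Stat6, which carries the IL-4 signal to Ccl17 and Ccl22, fell by 0.35 (adjusted p = 6.7e-06), and Irf3 fell by 0.16 (adjusted p = 0.042), a call that was lost when any 1 library other than NUR77 replicate 2 was left out (adjusted p up to 0.12). Of 8 factors that bind or degrade cytokine and chemokine mRNA, 5 rose and 2 fell (median 0.23), that is 7 called of 8 beside 66.7% of all tested genes. Zc3h12a, the endonuclease Regnase-1, rose from 119 ± 10.9 to 869.6 ± 67.7 (2.86, adjusted p = 1.5e-14), Zfp36l1 rose by 2.22 and Zfp36, or tristetraprolin, by 2.15, while Zfp36l2 (-0.70) and Rc3h2 (-0.31) fell. Of 5 proteases known to cut chemokines 1 was tested: Mmp9, or gelatinase B, which reached the filter only through NUR77, was at 3.71 ± 1.22 in GFP and 264 ± 52.2 in NUR77 (log2 fold change 5.83). Dpp4, which trims Ccl22 and Ccl5, had no read.

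The genes whose values over the 6 libraries were most like those of Ccl22, by the root mean square difference of centred log2 values, were Lcn2 (0.49), Ccr7 (0.94), Asb2 (1.05), Il1b (1.07) and Gm14275 (1.36). All 5 were nearly absent in GFP, with at most 5 reads in that group, which follows from their choice by likeness to Ccl22. Their NUR77 libraries differed in order: Lcn2, at 1131, 1244 and 1146, was almost level, and Asb2, at 226, 325 and 461, was lowest where Ccl22 was highest. For Ccl9 the nearest 4 were Mrpl51 (0.043), Ttc26 (0.047), Ankrd49 (0.053) and Mrpl20 (0.053), all of which fell, with log2 fold changes of -0.45 to -0.53. The likeness is over 6 libraries of 2 lines and is given as a description.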

How the data were processed

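RNA was measured by strand-specific poly(A) RNA-seq (TruSeq Stranded mRNA, 1000 ng RNA, 12 PCR cycles, a pool of 13 libraries) in 6 libraries, grouped by transgene. The submitters' processing notes name TopHat2 2.1, HTSeq, DESeq2 and mm10; the sources used here do not give their roles, the annotation or the strand setting. The authors deposited log2 values per gene and library. Undoing the log gave reads per 10000000 plus 1, and whole reads for 100% of values within 0.1 read. Equal library totals mean that a few abundant genes can shift the others.

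GENCODE M21 (GRCm38, mm10) named 22888 of 23154 identifiers. Differences were tested with limma 3.58.1 (R 4.3.3), with mean-variance trend and robust moderation, on log2(normalized reads + 1), without covariates, for genes with a mean of 10 or more, with Benjamini-Hochberg adjustment over all 11201. These fold changes understate the change of low genes. The code was tested on simulated data. The table of the series and the files per library held the same values, and no replicates were near-identical (chi-square per degree of freedom 2.48 or more).

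Members and gene lists were chosen with earlier results of these data known. Named genes are the 10 ligands, Nr4a1, other CC ligands and receptors with a mean of 10 or more in either group, up to 3 called genes per direction and list (largest fold change, mean of 50 or more), the 3 nearest protein-coding genes beside each gene group, and the 5 most similar patterns for Ccl22 and Ccl9; the results of 3 genes are not reported here, and gene lists were counted without them. Receptors under that mean, marker genes and genes named as such fall outside this rule.

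Alternatives were pseudocounts of 0.5 and 5, no filter or one at 50, TMM, upper-quartile and median-of-ratios scaling (own code), limma without trend and robust moderation, limma-voom on recovered reads, a replicate block, leaving out each library, and transcript lengths of the longest transcript.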

Additional observations from a re-analysis of the deposited data

How the results depend on the processing

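All 126 recomputed fold changes of the 8 tested ligands, over 16 alternative settings of the fit, kept their direction and their side of the threshold. Ccl6 and Ccl7 had no value with the filter at a mean of 50. Ccl2, Ccl5, Ccl7 and Ccl22 reached the filter only through NUR77 and had to differ once tested. That these ligands kept their call therefore adds nothing to their values. Adjusted p for Ccl22 was at most 0.022, with limma-voom, and its log2 fold change ran from 8.16 to 10.09. Ccl6 was not called in any of its 15 alternatives (adjusted p 0.11 to 0.53). Genes called numbered from 6680 of 9838 tested, with the filter at 50, to 8429 of 18607 with no filter. Ligands called were 6 of 6 tested with the filter at 50, 7 of 9 with no filter and 7 of 8 in the other settings. Without a filter on low levels 8 receptors were called rather than 4, since 12 were then tested. Of 1172 recomputed values of 74 other genes, receptors, list members, neighbours and similar patterns among them, 1134 kept direction and side, 24 lost the call (in Ciapin1, Irf3, Irf5, Pik3r5 and Rc3h1), 14 gained one and 0 reversed. Among those that kept it are the values of Ccr7, Cx3cl1, Rgs16, Mmp9, Mmp28, Lcn2, Asb2, Il1b and Gm14275. These genes reached the filter only through NUR77, so their kept calls add nothing, and 1134 overstates the stability. At a pseudocount of 0.5 the log2 difference between Ccl2 and Ccl7 turned from 0.59 to -0.26. The summed ligand level per kilobase moved by less than the spread between replicates under all its alternatives. TMM scaling moved the median of all tested genes from 0.06 to -0.01 on the log2 scale and the calls from 4305 higher and 3170 lower to 3619 and 3821.

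Deviations of libraries with the same replicate number correlated at 0.0016, 0.114 and 0.0447, and those with different numbers at -0.109 to 0.0732. The highest value, 0.114, was of a matched pair. These weak correlations do not show a pairing, but with 3 libraries per group they cannot exclude one. With a replicate block 7585 genes were called rather than 7475, and the same numbers of ligands (7) and receptors (4). At this depth 0 reads in the 3 GFP libraries allow up to 0.658 normalized reads, which bounds the fold changes of Ccl7, Ccr7 and Cx3cl1.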
